A study of Rattus norvegicus with 8 samples.

Results

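The interleukin 6 family of cytokines and its receptors were followed through injured sciatic nerve, injured spinal cord and cultured Schwann cells of the rat. The set held 10 genes of the 12765 with deposited values: the ligands Il6, Il11, Lif, Osm and Cntf, the receptors Il6r, Il6st, Osmr and Lifr, and the feedback gene Socs3. They are main ligands of the family, their receptor chains and a feedback inhibitor. The set is defined by name and by no threshold on values, but it was drawn up with earlier results of these data known, so its counts are a description. Each of the 10 had 1 probe, found by matching the probe's accession to a RefSeq gene symbol.

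Total RNA was measured on 8 one-colour Agilent arrays, 1 array for each of 8 groups, so differences lack a replicate check and no p-value is given. In adult female Sprague-Dawley rats the left sciatic nerve was transected at mid-thigh. The nerve groups were the left proximal segment, the left distal segment and, as control, the right nerve of the other side (contralateral), each taken on day 1. The contralateral sample's label also mentions a PBS injection site, so all that is known of this control is that it was the uncut side of operated animals. The cord groups, on day 5, were the site of a dorsal hemisection and a C-level control. For these samples some labels count days from an injury and others from an injection, without naming a substance. Each nerve and cord sample pooled 3 animals. Primary Schwann cells, the glia that wrap peripheral axons, came from rats of postnatal days 1 to 3, grew in medium with forskolin and pituitary extract and were used at passages 3 to 7. They were left unstimulated for 24 h, or were given S100A8/A9, a complex of calcium-binding proteins abundant in neutrophils, at 5 µg/ml for 1 h or 24 h. All 3 cultures therefore shared the same growth factors, and the unstimulated culture served for both times.

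Cytokines of this family signal through receptor complexes that share the chain gp130, the product of Il6st. Interleukin 6, interleukin 11 and CNTF need their own alpha receptors. LIF, CNTF and oncostatin M bring in the LIF receptor or the oncostatin M receptor beside gp130. Janus kinases bound to gp130 then phosphorylate STAT3, which switches on Socs3, and SOCS3 binds gp130 and shuts the signal off. In peripheral nerve CNTF is known as a product of myelinating Schwann cells, and IL-6 and LIF as cytokines released after axotomy.

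Values are the authors' log2 values, normalized between arrays, and a difference is a log2 difference of 2 arrays, 1 unit being 2-fold. The ± is a technical standard error taken from replicate spots of like brightness on the same array; it covers spot error only and not differences between animals or cultures. A gene was counted as higher or lower when it differed at least 2-fold. A probe that was not well above background on an array has only a bound there, written "at least" or "at most", and levels of different probes were not compared. Samples carry the names heading the authors' value table. For 7 of the 8 samples the scanner file recorded under the sample ranks its probes unlike that column (Spearman rho 0.802 to 0.900 across probes), while a scan recorded under another sample ranks almost identically. Of the 24 differences counted below as 2-fold, 23 have a value with the scans as recorded, and 12 of these have the opposite sign there. Every direction below thus depends on the column headings. On each array 66.7% to 77.6% of probes exceeded background clearly. Of the 10 genes, 8 were well above background on all 8 arrays, Osmr on 6 and Il6 on 2.

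The tissue labels were compared with marker genes under the same headings. Neuron markers had their highest summed level in the C-level cord (17.58, log2) and the dorsal hemisection (16.06), against 11.15 to 13.36 in the other 6 samples. Schwann cell markers do not separate the tissues in this way: they summed to 17.20 to 17.96 in the cultures, 18.46 to 19.36 in nerve and 18.70 to 18.90 in cord, and the list holds myelin genes that oligodendrocytes also express. In each culture 4 of 10 macrophage markers and 3 to 4 of 10 neutrophil markers were well above background, against 10 of 10 macrophage markers in every nerve and cord sample. Of the neutrophil markers, 7 of 10 were in the contralateral nerve, 6 of 10 in the C-level cord and 10 of 10 in each injured sample. Markers not well above background in any culture included the macrophage genes Cd163, Msr1, Mrc1 and C1qa and the neutrophil genes S100a8, S100a9, Csf3r and Mmp8.

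Promoter windows are shown for Il6, the ligand with the widest difference, for a receptor and the feedback gene that were also higher in cut nerve, and for the ligand that was lower there, so that their known regulatory motifs can be set side by side. The windows run from 250 bases before to 50 bases after the start of the gene, 5′ to 3′ on the gene's strand, from RefSeq on build GRCr8; 8 of the 10 genes matched the table, and Osm and Lif did not. Capitals mark matches, on either strand, to 6 motifs: TTCNNNGAA and TTCCNGGAA for STAT factors, the kappa-B motif for NF-kB (the match named below, with any base at the fifth place), TGANTCA for AP-1, TTGCNNAA for C/EBP and TGACGTCA for CREB. The second STAT motif lies within the first.
Il6, chr4:5894526-5894825, minus strand: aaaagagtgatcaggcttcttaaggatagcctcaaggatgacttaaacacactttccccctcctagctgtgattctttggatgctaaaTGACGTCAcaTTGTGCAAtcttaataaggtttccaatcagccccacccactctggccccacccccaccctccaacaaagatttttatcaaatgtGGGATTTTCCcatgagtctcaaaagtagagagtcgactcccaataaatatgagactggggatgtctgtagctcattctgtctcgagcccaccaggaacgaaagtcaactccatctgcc
Osmr, chr2:57688512-57688811, minus strand: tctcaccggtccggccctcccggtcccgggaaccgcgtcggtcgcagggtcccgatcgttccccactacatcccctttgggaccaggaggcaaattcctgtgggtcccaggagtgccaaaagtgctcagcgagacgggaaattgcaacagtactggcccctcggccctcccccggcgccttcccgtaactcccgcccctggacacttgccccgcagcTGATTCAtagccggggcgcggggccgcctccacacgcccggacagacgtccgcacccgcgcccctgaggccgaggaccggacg
Socs3, chr10:103694719-103695018, minus strand: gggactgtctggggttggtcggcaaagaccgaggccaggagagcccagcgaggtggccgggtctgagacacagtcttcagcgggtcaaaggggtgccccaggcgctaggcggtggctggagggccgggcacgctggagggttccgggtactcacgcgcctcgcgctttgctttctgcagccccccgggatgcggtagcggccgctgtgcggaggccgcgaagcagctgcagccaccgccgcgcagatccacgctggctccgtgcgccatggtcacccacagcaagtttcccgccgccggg
Cntf, chr1:219314486-219314785, minus strand: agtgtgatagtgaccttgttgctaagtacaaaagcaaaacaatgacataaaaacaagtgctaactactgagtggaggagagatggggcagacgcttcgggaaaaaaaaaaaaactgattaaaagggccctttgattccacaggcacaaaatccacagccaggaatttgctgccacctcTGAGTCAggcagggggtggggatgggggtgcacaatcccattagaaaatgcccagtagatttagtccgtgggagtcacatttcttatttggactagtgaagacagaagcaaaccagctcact

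The Il6 window held 3 of the motifs: the NF-kB match GGGATTTTCC 68 to 59 bases upstream of the start, the C/EBP match TTGTGCAA 152 to 145 bases upstream and the CREB match TGACGTCA 162 to 155 bases upstream. The NF-kB motif occurred in 0.362% of 33465 promoter windows, the C/EBP motif in 10.6% and the CREB motif in 1.83%. AP-1 matches lay 33 to 27 bases upstream in Osmr (TGATTCA), 72 to 66 bases upstream in Cntf (TGAGTCA) and 142 to 136 bases upstream in Il11 (TGAGTCA), and 7.33% of all windows held that motif. As given below, Cntf was lower and Osmr higher in cut nerve, so genes with the AP-1 letters went in both directions. The Socs3, Il6r, Il6st and Lifr windows held none of the 6, and no window of the 8 held the STAT motifs, which occurred in 8.87% (TTCNNNGAA) and 1.27% (TTCCNGGAA) of all windows. These are matches of letters in a 300-base window and not measured binding. Each window is placed by the annotated start of the gene, and whether transcription starts there was not checked. The Socs3 window reaches an atg and what reads as coding sequence near its end, and so do the Il6r and Il6st windows. A missing motif therefore describes the window only, and not the promoter of the gene.

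Il6, which encodes interleukin 6, was near background everywhere except in the cut nerve. Its log2 value was 1.73 in the contralateral nerve, 10.34 in the proximal segment and 8.44 in the distal segment. In cord it was 1.81 in the C-level control and 2.49 at the dorsal hemisection, and in Schwann cells 3.98 unstimulated, 3.48 at 1 h and 3.91 at 24 h. Only the proximal and distal segments were well above background, and the contralateral value is a bound. Against that bound Il6 was at least 164-fold higher in the proximal segment (log2 difference at least 7.36) and at least 43.8-fold higher in the distal segment (at least 5.45). Normexp background correction with quantile normalization on the matching scans, an alternative that compresses dim signals, gave 4.08 and 2.32. Both comparisons share the contralateral array. The probe was spotted 10 times on each array, and the median processed signal of its spots was 1363 in the proximal and 424 in the distal segment against 3.79 in the contralateral nerve. The other 5 arrays had spot medians between 4.47 and 11.9. A lone spot on the unstimulated Schwann cell array stood apart at 71.1, and it was the 1 spot of 10 there that was well above background.

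**Figure D1:**
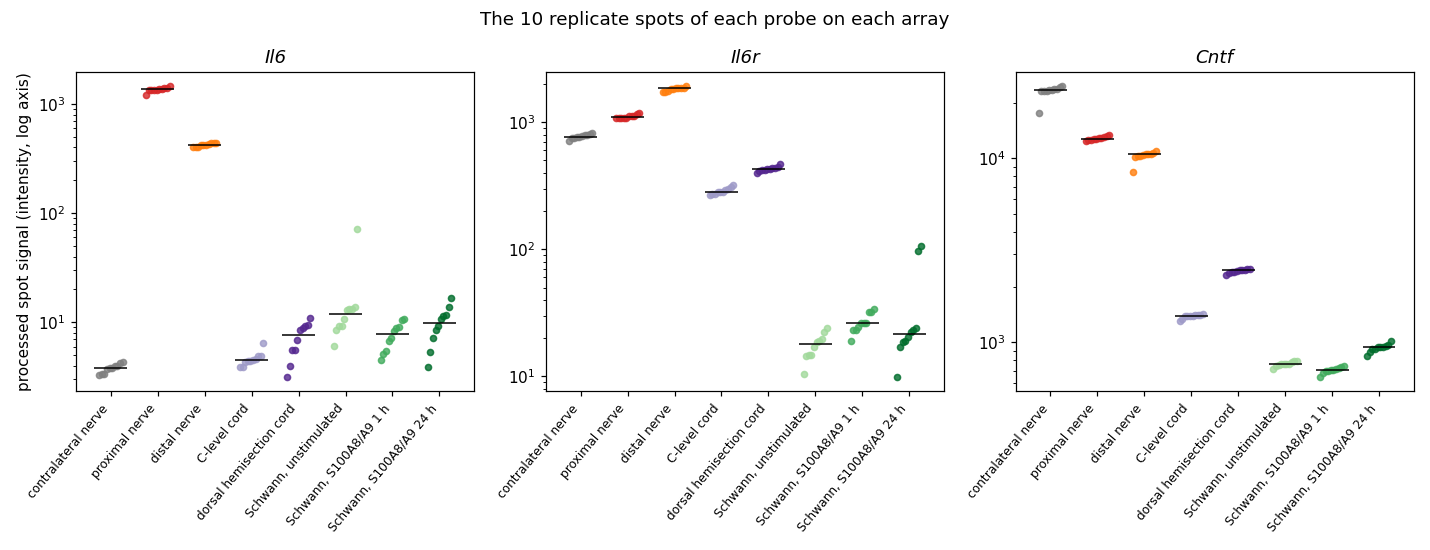
Processed signal (log axis, scanner units) of the 10 replicate spots of Il6, Il6r and Cntf, the genes spotted 10 times, on the 8 arrays, each array being the scan that ranks as the sample's column does; each point is a spot and each bar the median. The Il6 spots of the 2 injured nerve segments lie far above those of the other 6 arrays, apart from the unstimulated Schwann cell spot at 71.1, while Cntf and Il6r spots are lowest in the cultures.

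Osm, which encodes oncostatin M, a product of activated neutrophils and macrophages, was also highest in the cut nerve. It stood at 6.32 in the contralateral nerve, 8.10 in the proximal segment and 7.33 in the distal segment. The cord samples were at 6.66 and 6.64, and the cultures at 6.72 unstimulated, 6.62 at 1 h and 6.80 at 24 h. The 6 samples other than the injured segments lay close together, and below both of them. The difference from the contralateral nerve was 1.78 ± 0.19 proximally and 1.00 ± 0.19 distally, the distal one lying almost on the 2-fold line.

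Il11, a cytokine that uses gp130 with its own alpha receptor, had a narrower range. It was lowest in the contralateral nerve (7.16) and stood at 8.21 in the proximal and 7.63 in the distal segment. In cord it was 7.36 in the C-level control and 8.34 at the dorsal hemisection. The cultures were at 8.12 unstimulated, 8.07 at 1 h and 7.63 at 24 h. The hemisection, the proximal segment and the first 2 of these cultures formed the top of the order and were not apart by spot error from neighbour to neighbour, nor were the lowest samples. The proximal segment exceeded the contralateral nerve by 1.04 ± 0.15, a difference that narrowly passed 2-fold, whereas the distal segment exceeded it by 0.46 ± 0.15.

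Lif, the leukemia inhibitory factor gene, showed the flattest pattern of the 10. Its values ran only from 6.52 at the dorsal hemisection to 7.02 in unstimulated Schwann cells, a span of 0.49, and only 2.06% of all genes had a smaller one. No neighbours in the order of its 8 levels were apart by spot error. The difference from the contralateral nerve (6.69) was 0.10 ± 0.22 in the proximal segment and 0.05 ± 0.20 in the distal segment. The 95% technical interval keeps both below 2-fold for these arrays.

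Cntf, the ciliary neurotrophic factor gene, went the other way. It was highest in the contralateral nerve at 14.77, and stood at 13.52 in the proximal and 13.06 in the distal segment. In cord it was 10.53 in the C-level control and 11.74 at the dorsal hemisection, and in Schwann cells 9.59 unstimulated, 9.30 at 1 h and 9.85 at 24 h. The order was nerve, then cord, then cultured Schwann cells, and every neighbouring pair in it was apart by spot error. Cntf was lower by 1.25 ± 0.03 in the proximal segment (a difference of -1.25) and by 1.71 ± 0.03 in the distal segment (-1.71). Because these are bulk samples, fewer cells of a type and less RNA per cell cannot be told apart. Of the Schwann cell marker list, 4 of 10 were at least 2-fold lower proximally and 6 of 10 distally (medians -0.92 and -1.28). Over all genes 12.0% and 14.4% were lower. In each segment 1 marker of that list, Ngfr, was at least 2-fold higher (9.62 proximally and 10.03 distally, against 8.43). Fibroblast markers were lower too, for 5 of 10 proximally and 7 of 10 distally (medians -1.08 and -1.31). The part of either in the lower Cntf was not tested.

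**Figure D2:**
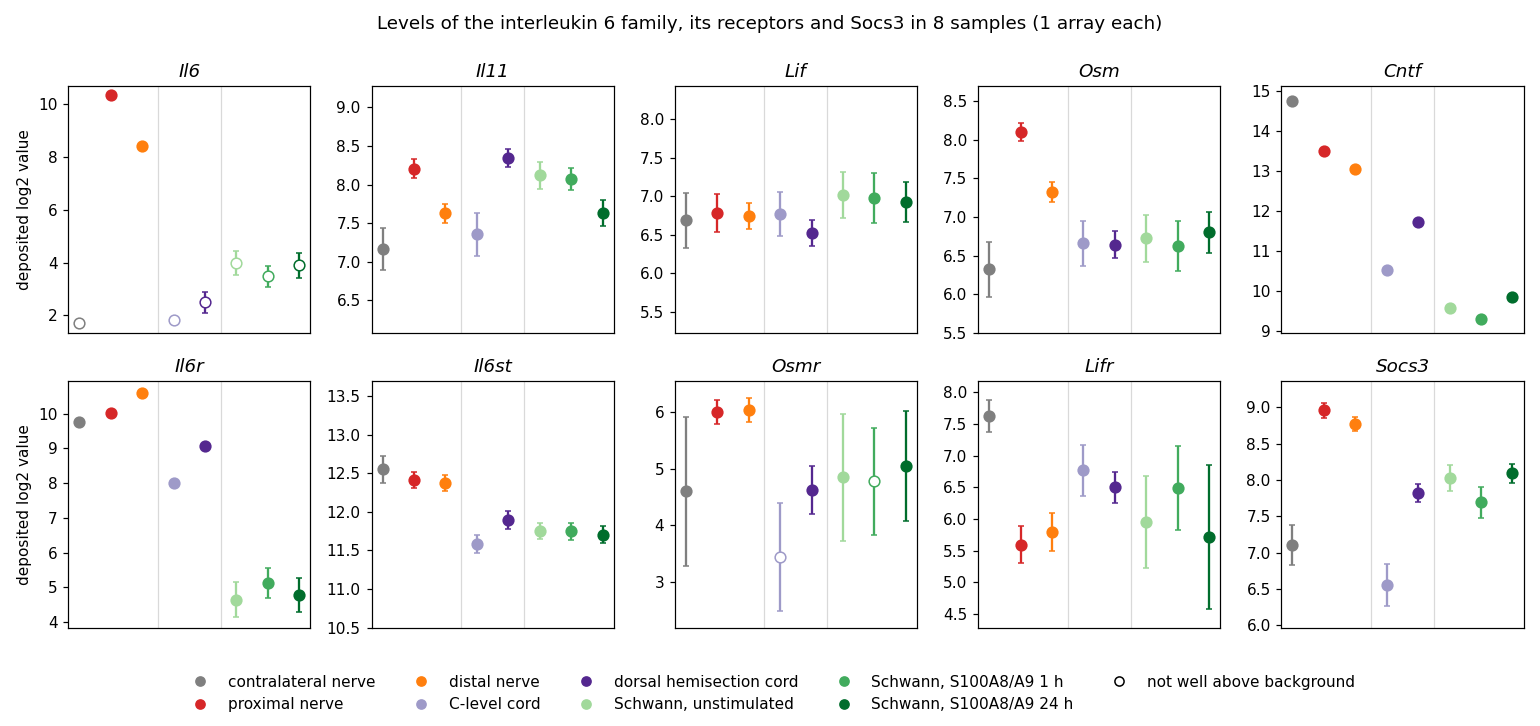
Authors' log2 value of each of the 10 genes in the 8 samples, 1 panel per gene; points are array values, error bars the 95% technical interval from replicate spots, and open points mark probes not well above background. Il6 stands clear of background only in the 2 injured nerve segments, Cntf and Il6r step down from nerve to cord to culture, and Lif and Il6st are nearly flat.

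Of the receptors, Osmr was higher and Lifr lower in the cut nerve. Osmr, the oncostatin M receptor gene, was at 4.60 in the contralateral nerve, 6.01 in the proximal segment and 6.04 in the distal segment. It was at 3.44 in the C-level cord, where it was not well above background, and 4.62 at the dorsal hemisection. The cultures were at 4.85 unstimulated, 4.78 at 1 h, which was again not well above background, and 5.05 at 24 h. The injured segments were thus the highest samples, by 1.41 ± 0.68 proximally and 1.44 ± 0.68 distally over the contralateral nerve, with wide error since the probe is dim. Normexp gave 0.45 and 0.47, so Osmr lost both 2-fold calls there. Neighbours in the order of its levels were not apart by spot error. Its promoter window, printed above, holds the AP-1 letters close to the start.

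Lifr, the gene of the chain that LIF and CNTF use with gp130, was highest in the contralateral nerve at 7.63 and stood at 5.59 in the proximal and 5.80 in the distal segment. The cord samples lay between, at 6.77 in the C-level control and 6.50 at the dorsal hemisection. Schwann cells were at 5.96 unstimulated, 6.49 at 1 h and 5.72 at 24 h. The contralateral nerve stood alone at the top, and no neighbours below the first pair were apart by spot error. The differences from it were -2.04 ± 0.20 proximally and -1.83 ± 0.20 distally, each from a probe with 1 spot per array. Under normexp they were -0.76 and -0.70, short of 2-fold in both segments. The counts of Schwann cell and fibroblast markers given beside Cntf hold here too, and the part of those cells was not tested.

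Il6st, which encodes the shared chain gp130, varied little: 12.56, 12.41 and 12.37 in contralateral, proximal and distal nerve. It was 11.58 in the C-level cord and 11.89 at the dorsal hemisection, and between 11.70 and 11.76 in the 3 cultures. The nerve samples were the highest, and the differences of the cut segments from the contralateral nerve were -0.14 ± 0.10 proximally and -0.18 ± 0.10 distally.

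Il6r, the interleukin 6 alpha receptor gene, was at 9.75 in the contralateral nerve, 10.02 in the proximal segment and 10.60 in the distal segment. The cord had 8.01 in the C-level control and 9.07 at the dorsal hemisection, while Schwann cells had only 4.64 unstimulated, 5.13 at 1 h and 4.78 at 24 h. The 3 cultures lay far below all 5 tissue samples and close to background, with 6, 9 and 9 of the 10 spots well above it. The distal segment exceeded the contralateral nerve by 0.85 ± 0.04 and the proximal segment by 0.27 ± 0.04, both short of 2-fold.

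Socs3, the STAT3-induced inhibitor of gp130 signalling, was at 7.10 in the contralateral nerve, 8.96 in the proximal segment and 8.76 in the distal segment. The C-level cord was at 6.56 and the dorsal hemisection at 7.82, and the cultures at 8.03 unstimulated, 7.69 at 1 h and 8.09 at 24 h. The injured segments were the highest samples and the contralateral nerve and C-level cord the lowest. Socs3 exceeded the contralateral nerve by 1.86 ± 0.15 proximally and 1.67 ± 0.15 distally.

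Counted together, 5 of the 10 genes were at least 2-fold higher in the proximal segment than in the contralateral nerve (Il6, Il11, Osm, Osmr, Socs3), where 11.2% of all tested genes were, and 2 were lower (Cntf, Lifr), where 12.0% were. In the distal segment 4 were higher (Il6, Osm, Osmr, Socs3), against 13.5% of all genes, and 2 lower (Cntf, Lifr), against 14.4%. The median difference of the 10 genes was 0.66 in each segment, against -0.0023 over all genes proximally and 0.01 distally. Normexp gave 3 higher and 1 lower proximally, where 6.7% of all genes were higher and 6.45% lower under that setting, and 2 higher and 1 lower distally, where 8.36% and 8.15% were. Besides Osmr and Lifr, it left Il11 in the proximal segment (0.75) and Osm in the distal segment (0.56) short of 2-fold. With the matching scans scaled to their 75th percentile, Il11 in the proximal segment (0.98) and Osm in the distal segment (0.84) fell short of 2-fold.

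Markers of neutrophils, macrophages and muscle were higher in the cut segments, as Il6, Osm and Socs3 were. Neutrophil markers were higher for 9 of 10 genes proximally and 8 of 10 distally, and their summed level went from 11.73 in the contralateral nerve to 15.17 and 14.95 (log2). Macrophage markers were higher for 6 of 10 and 8 of 10, with sums of 15.62, 16.35 and 16.80. Skeletal muscle markers were higher for 10 of 10 proximally and 8 of 9 distally, with sums of 10.94, 16.08 and 12.78. The part of these cells in the differences was not tested.

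**Figure D3:**
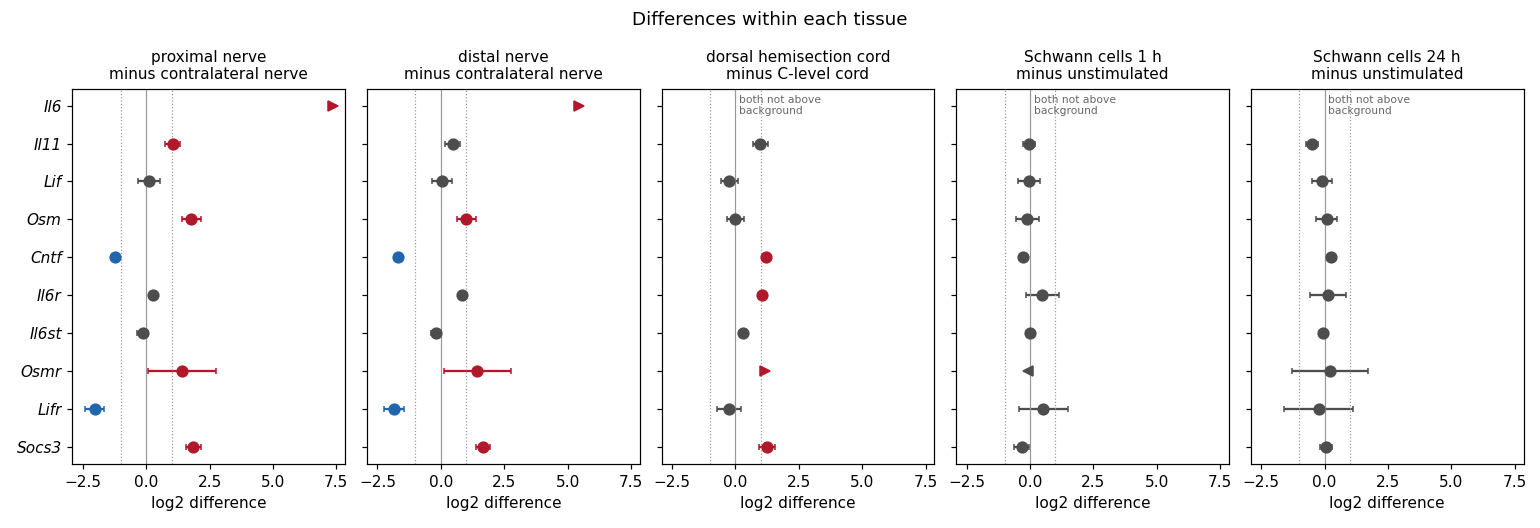
Log2 difference of each gene in 5 comparisons within a tissue; points are measured differences with the 95% technical interval, triangles are bounds, red and blue mark at least 2-fold higher and lower, and dotted lines the 2-fold limits. Both nerve panels share the contralateral array and both Schwann cell panels the unstimulated array; no gene passes 2-fold in the cultures.

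Between the 2 injured segments Il6 differed most. It was lower in the distal than in the proximal segment by 1.90 ± 0.06 (-1.90), and only 0.61% of genes had a lower difference. It alone of the 10 was past 2-fold, where 1.94% of all genes were lower. Osm (-0.78 ± 0.09), Il11 (-0.58 ± 0.09) and Cntf (-0.46 ± 0.02) were also lower distally by more than spot error, and Il6r was higher distally by 0.58 ± 0.03. Socs3 differed by -0.19 ± 0.07, Osmr by 0.03, Lif by -0.04 ± 0.15 and Lifr by 0.20 ± 0.22. None of the 10 was 2-fold higher distally, where 1.24% of all genes were. The muscle markers differed most between these segments, with 10 of 10 at least 2-fold lower distally (median -3.68), and their part in the Il6 difference was not tested.

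The other genes of the pathway were taken from fixed lists and counted in the same way. Their counts are to be read against the shares of all genes given above, 11.2% higher and 12.0% lower proximally and 13.5% and 14.4% distally. Of the other family ligands and receptors, 5 of 10 had a deposited value. Ctf1, the cardiotrophin gene, was lower proximally (-1.59 ± 0.11) and distally (-1.87 ± 0.10), and Cntfr, the CNTF alpha receptor gene, differed by -1.62 and -1.54. Il11ra1, the interleukin 11 receptor gene, was lower distally (-1.42 ± 0.08). Ebi3, a subunit of interleukin 27, was higher distally by 1.36 ± 0.08. So 2 of these genes were lower proximally, and 3 lower distally.

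Downstream of the receptors, 1 of 11 Janus kinase and STAT genes was 2-fold higher proximally (Jak2, 1.17 ± 0.09) and 2 distally (Stat5b, 1.14 ± 0.19, and the adaptor Grb2, 1.19 ± 0.11), with none lower. These counts are near the share of all genes that were higher. Among 10 other feedback genes the same 3 phosphatase genes were higher in each segment. Ptpn6, which encodes the blood cell phosphatase SHP-1, was higher by 1.32 proximally and 1.92 distally, Ptpn2 by 1.39 and 1.51, and Ptpn1 by 1.29 and 1.43. Of 20 known STAT3 target genes, 9 were higher proximally and 11 distally, none lower, with medians of 0.94 and 1.03. They included Timp1, a protease inhibitor gene (2.44 and 2.27), the cell division gene Birc5 (2.38 and 3.23) and the NF-kB cofactor gene Bcl3 (1.96 and 2.07). Many of these targets answer to other factors as well, so the counts do not measure STAT3 activity.

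Of 8 inflammatory genes, among them known inducers of Il6, receptors for such inducers and the inhibitors Il1rn and Nfkbia, 6 were higher proximally and 5 distally. Il1b, the interleukin 1 beta gene, was higher by 3.76 and 3.21, Tlr2 by 2.94 and 2.93, and Il1rn, the interleukin 1 receptor antagonist gene, by 5.18 and 4.52. Of 10 acute phase genes, which IL-6 drives in liver, 3 were higher proximally and 2 distally. Serpina3n was higher by 3.68 and 4.42 and the haptoglobin gene Hp by 2.42 and 2.28. Of 7 genes linked to regeneration, 3 were higher and 3 lower proximally, and 2 were higher and 1 lower distally. Reg3b, which encodes a secreted lectin, was higher by at least 2.90 and at least 2.70, and Gch1, the gene of the first enzyme of tetrahydrobiopterin synthesis, by 2.80 and 2.86. Gal, the galanin gene, was lower in both segments (-2.04 ± 0.06 and -2.88 ± 0.04). The neuropeptide gene Vip was lower proximally (-2.15 ± 0.30) and differed by 0.10 ± 0.20 distally. Atf3, a transcription factor gene, was lower proximally (-1.06 ± 0.08) and differed by -0.81 ± 0.08 distally. Adam17, the protease gene for shedding of the IL-6 receptor, differed by only 0.18 ± 0.09 and 0.31 ± 0.09.

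**Figure D4:**
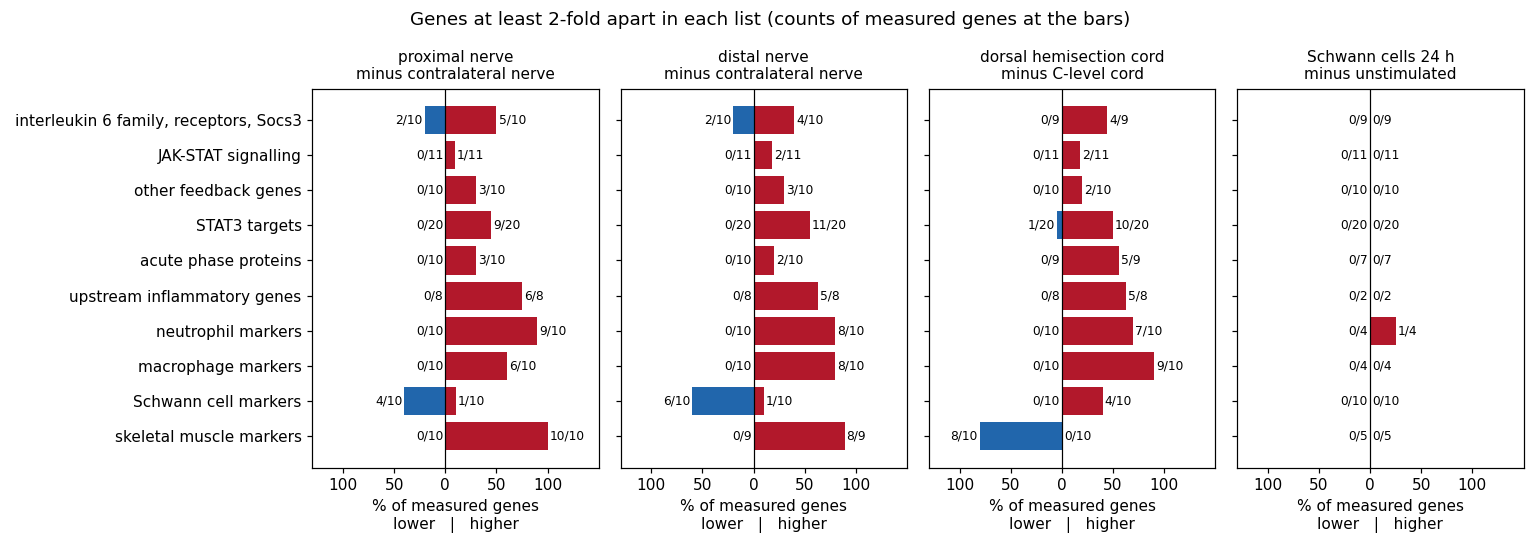
Share of measured genes in 10 of the fixed lists that were at least 2-fold higher (to the right) or lower (to the left) in the proximal nerve, distal nerve, cord and 24 h Schwann cell comparisons, as percent of measured genes, with counts beside the bars; upstream inflammatory genes are Il6 inducers, receptors for them and 2 inhibitors. Of the STAT3 targets and inflammatory genes past 2-fold, all but 1 in cord are on the higher side in nerve and cord, and in the cultures the only bar is 1 of 4 measured neutrophil markers.

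In spinal cord at day 5 Cntf was among the genes that were higher, where in cut nerve it was lower. Tissue, day and injury all differ between these comparisons, and the responses were not tested against each other. Il6 was not well above background in either cord sample and has no value. Cntf was higher at the dorsal hemisection than in the C-level control by 1.21 ± 0.03, Il6r by 1.06 ± 0.04 and Socs3 by 1.26 ± 0.16. Osmr was higher by at least 1.18. These 4 of 9 genes with a value were at least 2-fold higher, where 10.2% of all tested genes were, and none was lower, where 9.26% were. Il11 fell just short at 0.98 ± 0.15. Il6st differed by 0.31 ± 0.08, Osm by -0.01, Lif by -0.25 ± 0.17 and Lifr by -0.26 ± 0.24. The median of the 9 was 0.98, against -0.04 over all genes. Normexp gave 1 gene higher, where 5.95% of all genes were, with Il6r at 0.87, Socs3 at 0.86 and Osmr at 0.13, and with the matching scans at their 75th percentile Il6r stood at 0.91.

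Cell markers also differed between the cord samples. Macrophage markers were at least 2-fold higher at the hemisection for 9 of 10 genes (sums 15.19 and 16.93) and neutrophil markers for 7 of 10 (sums 12.13 and 14.40). Neuron markers were lower for 8 of 9, and Schwann cell markers higher for 4 of 10. Fibroblast markers were higher for 5 of 10 and lower for 1 (median 1.04). Skeletal muscle markers were lower for 8 of 10 (sums 13.51 in the C-level control and 12.39 at the hemisection). The part of these cells in the differences was not tested. The samples also came from different sites of the cord, which cannot be told apart from the injury.

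Of the fixed lists in cord, to be read against 10.2% of all genes higher and 9.26% lower, STAT3 targets were higher for 10 of 20 genes and lower for 1, with Birc5 at 2.35, Bcl3 at 2.10 and Cebpd, a transcription factor gene of the acute phase, at 1.82. Acute phase genes were higher for 5 of 9, led by Lbp, the lipopolysaccharide binding protein gene, at 3.31 ± 0.10, with Serpina3n at 2.61 and Hp at 2.21. The inflammatory genes were higher for 5 of 8, with Tlr2 at 2.34, Il1rn at 1.76 and Il1b at 1.73. Ebi3 was higher (1.13), as were the phosphatase genes Ptpn6 (1.85) and Ptpn1 (1.25), and the signalling genes Stat6 (1.45) and Shc1 (1.47). Of the regeneration genes, Reg3b was higher by 5.53 and Atf3 by 3.71, the latter having been lower in cut than in contralateral nerve.

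In cultured Schwann cells none of the 9 genes with a value differed by 2-fold after S100A8/A9. The unstimulated culture was taken at 24 h, so in each 1 h comparison treatment and time cannot be told apart. At 1 h 1.70% of all tested genes were higher and 1.35% lower, and at 24 h 0.636% and 0.627%. Il6 was not well above background in any of the 3 cultures and has no difference there. Socs3 was lower at 1 h by 0.33 ± 0.14 (-0.33) and differed by 0.06 ± 0.11 at 24 h. Cntf was lower at 1 h (-0.29 ± 0.03) and higher at 24 h (0.25 ± 0.03), against the same unstimulated array. Il11 differed by -0.05 at 1 h and by -0.49 ± 0.13 at 24 h. Lifr (0.53 ± 0.50 and -0.24 ± 0.69) and Il6r (0.48 ± 0.34 and 0.14 ± 0.36) had intervals that span 0. Osm differed by -0.11 and 0.08, Lif by -0.03 and -0.09, and Il6st by -0.01 and -0.05. Osmr differed by at most -0.07 at 1 h and by 0.20 ± 0.76 at 24 h. Between 1 h and 24 h Cntf differed by 0.55 ± 0.03 and Socs3 by 0.40 ± 0.13, and none of the 9 reached 2-fold, where 1.86% of all genes were higher and 2.04% lower at 24 h.

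Few genes of the pathway lists differed in the cultures. At 24 h none of the measured genes in the signalling, feedback, STAT3 target, acute phase and inflammatory lists reached 2-fold. At 1 h 1 STAT3 target was higher, the cyclin gene Ccnd1 (1.94 ± 0.06), and 1 was lower, Bcl3 (-1.16 ± 0.03), while Atf3 was lower by 1.48 (-1.48). For these 1 h values too, treatment and time cannot be told apart. The inducer genes Il1b, Il1a, Tnf and Ptgs2 and the receptor gene Tlr4 were not well above background in any culture.

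Between the control samples of nerve and cord, the contralateral nerve exceeded the C-level cord at least 2-fold for 3 of 9 genes, where 19.8% of all genes were higher, and for none was it lower, where 18.4% were. Cntf was 18.8-fold higher in nerve (4.23 ± 0.04), Il6r was higher by 1.74 ± 0.05 and Osmr by at least 1.15 ± 0.83, which is within spot error of no difference. Il6st (0.97 ± 0.11), Lifr (0.86 ± 0.25) and Socs3 (0.54 ± 0.20) were higher by less, and Il11 (-0.19), Lif (-0.08) and Osm (-0.33) differed little. Osmr stood at 0.73 with the matching scans at their 75th percentile and at 0.11 under normexp.

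Unstimulated Schwann cells were at least 2-fold below the contralateral nerve for 3 of 9 genes, where 20.8% of all genes were lower, and above it for none, where 21.6% were higher. Cntf was 36.1-fold lower in culture (-5.17 ± 0.04), Il6r 34.4-fold lower (-5.10 ± 0.26) and Lifr lower by 1.67 ± 0.39 (-1.67). With Il6r near background in culture its fold depends on the processing, the log2 difference being -3.08 under normexp and -5.68 with the matching scans at their 75th percentile. Lifr was at -0.55 under normexp, short of 2-fold, and Cntf at -5.02. Il6st was lower by 0.80 (-0.80 ± 0.10). Il11 (0.95 ± 0.17) and Socs3 (0.93 ± 0.17) were higher by just under 2-fold. The culture came from newborn rats and the nerve from adults, and the nerve holds other cells too. Macrophage markers summed to 15.62 in the contralateral nerve and 8.90 in the culture. Of 10 fibroblast markers 7 were at least 2-fold lower in the culture (median -4.67), with Dcn and Lum not well above background there. Another 2 were at least 2-fold higher in the culture, Col1a1 (17.97 against 16.94) and Thy1 (8.55 against 6.72). The fibroblast markers summed to 19.62 in nerve and 18.77 in culture. The part of macrophages and fibroblasts in the Il6r and Cntf differences was not tested.

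The genes whose pattern over the 8 samples was most like that of a member were ranked by the root mean square difference of their centred log2 values. Members spanning less than 2 log2 units (Il11, Lif, Osm and Il6st) were left out. For Socs3 the closest were Junb, an AP-1 transcription factor gene (0.18), and Rin3 (0.19). For Osmr they were Junb again (0.16) and the phosphatase gene Ptpn2 (0.21). For Cntf they were C1r, a complement protease gene (0.27), and Fxyd6 (0.28), and for Il6r the immunoproteasome gene Psmb9 (0.23) and Heph (0.32). For Lifr they were the sterol synthesis gene Sc5d (0.27) and Bicd1 (0.30). For Il6 they were Ces1c (0.98) and Clec4d, a myeloid lectin gene (1.01). Il6 and Ces1c were each well above background on only 2 of the 8 arrays and Clec4d on 4. Much of that likeness is thus between values not well above background. The measure is not scaled to the span of a gene, and Il6 had the widest span of the 10 (8.61). Its larger values thus do not show a poorer match. The likeness is over 8 arrays of 3 tissues and describes these libraries only.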

How the data were processed

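The deposited scanner files held spot intensity, which the file headers credit to Feature Extraction 10.7.3.1 (the submitters' processing notes name version 10.5). The value table held the authors' deposited log2 values; every column has the median 8.03, and how the authors normalized between arrays is not stated in the labels or headers. Values were read by column heading. For background flags and spot errors each column was joined to the scan with the same ranks (rho at least 0.99999, next best at most 0.993), since the recorded scan differed for 7 of 8 samples. Accessions of 18006 of 30367 probes matched a GRCr8 RefSeq symbol, and 15213 of these had deposited values; a gene took its probe of highest mean. A gene well above background on neither array of a comparison was left out of it. Where 1 array was below background, its value was raised to the lowest signal well above background on that array (log2 2.20 to 3.88). Technical errors pooled replicate spots in 20 signal bins. The fold threshold was 2. The number of arrays, 1 per group, limits the precision, and no test was possible. The genes and lists were chosen with earlier results of these data known. A gene of the list of other family ligands and receptors is not reported here. Of the lists, the text names the 2-fold genes of the ligand, receptor, signalling and feedback lists, and up to 3 of each other list with the widest differences in a comparison. Alternatives were a 1.5-fold threshold, the scans as recorded, the matching scans at their 75th percentile, normexp (offset 50) with quantile normalization in limma 3.58.1, the mean of a gene's probes, and other background rules. Python 3.11.15 and R 4.3.3 were used.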

Additional observations from a re-analysis of the deposited data

Results flagged for a closer look

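Cntf in Schwann cells differed from the unstimulated culture in opposite directions at the 2 times of S100A8/A9: -0.29 at 1 h and 0.25 at 24 h (log2). Each exceeds its spot error of 0.03 with 10 spots per array. Both use the same unstimulated 24 h array, so at 1 h treatment and time cannot be told apart. Each time is 1 culture, and the difference between the times was not tested against culture variation. Of 10 Schwann cell markers 3 were at least 2-fold lower at 1 h (median -0.59), where 1.35% of all genes were, and none higher. At 24 h none passed 2-fold (median 0.04). Their part was not tested.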

How the results depend on the processing

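No paired analysis was possible because each group had 1 array. With the scans as recorded, the reversed log2 differences were 1.42 for Cntf (distal minus contralateral); -0.71 for Il11, -0.89 for Osm, -1.26 for Osmr and -0.71 for Socs3 (proximal minus contralateral); 5.56 for Il6 (distal minus proximal); -0.29 for Cntf, -0.13 for Il6r, -0.21 for Osmr and -0.063 for Socs3 (cord); and 1.89 for Cntf and 0.86 for Il6r (unstimulated Schwann cells minus contralateral nerve). The cause of the conflicting record was not tested. Counts of genes past 2-fold with those scans were 1 lower in distal against contralateral nerve (from 2), 0 higher in proximal against contralateral nerve (from 5), 6 higher and 0 lower in distal against proximal nerve (from 0 and 1), 0 higher in cord (from 4), 2 higher and 4 lower in Schwann cells at 1 h, 1 higher and 6 lower at 24 h, 2 lower at 24 h against 1 h (all from 0), and 3 higher and 1 lower in unstimulated cells against nerve (from 0 and 3). Over all genes those scans gave 20% lower in distal against contralateral nerve and 17.1% higher in proximal against contralateral nerve. In distal against proximal nerve 22.1% were higher and 15.1% lower, and in cord 0.8% were higher. In Schwann cells 11.1% were higher and 11.1% lower at 1 h, and 20.8% and 21% at 24 h. At 24 h against 1 h 16.8% were lower. In unstimulated cells against nerve 12.9% were higher and 17.7% lower. Normexp gave 2 higher and 1 lower distally, 3 higher and 1 lower proximally, and 1 higher in cord. Its Il6 differences were 2.32 distally and 4.08 proximally. At 1.5-fold the counts were 2 lower in distal against proximal nerve, 1 lower at 24 h against 1 h, 5 higher in nerve against C-level cord, and 2 higher in unstimulated cells against nerve. The share of all genes past 1.5-fold was not computed, so nothing is read from these counts. With no filter or floor, at 2-fold, 1 gene was higher in unstimulated cells against nerve (from 0), where 21.4% of all genes were. That gene was Il6 (2.25), which was not well above background on either array. Of the 24 differences past 2-fold, all 24 kept their sign under normexp (13 past 2-fold), the matching scans at their 75th percentile (20), the mean of probes (24) and no floor (24), and all 20 with both arrays above background were past 2-fold. Dim probes, Osmr and Il6 outside cut nerve, are limited by background.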

Other observations

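Members that are neighbours in the RefSeq table had unlike differences in cut nerve. Osmr and Lifr lie on the same chromosome with 0 protein-coding genes between them; in the proximal segment Osmr was higher by 1.41 and Lifr lower (-2.04), and in the distal segment the values were 1.44 and -1.83. Osm and Lif also have 0 protein-coding genes between them, and Osm differed by 1.78 and 1.00 where Lif differed by 0.10 and 0.05. The pairs were chosen after their values were seen.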
